A study of Mus musculus with 15 samples.

Results

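The mRNA levels of 10 genes that carry long-chain fatty acids into and within cells were examined in the liver and lung of mice fed a control diet or a diet with phytosterols. They were the membrane receptor gene Cd36, the fatty acid binding protein (FABP) genes Fabp1, Fabp2, Fabp4 and Fabp5, and the fatty acid transport protein (FATP) genes Slc27a1, Slc27a2, Slc27a3, Slc27a4 and Slc27a5. The members were chosen by gene name, and all 10 were found among the 54532 genes of the count tables. CD36 is a scavenger receptor that facilitates the entry of long-chain fatty acids at the surface of endothelial, muscle, fat and macrophage cells. FABPs are small cytosolic proteins that hold fatty acids in solution and hand them to enzymes and nuclear receptors, and each has a home tissue: FABP1 in hepatocytes and gut, FABP2 in gut, FABP4 in fat cells and macrophages, and FABP5 in epidermis, macrophages and several other tissues. FATPs are membrane proteins that pair fatty acid entry with activation to acyl-CoA, and FATP5 (Slc27a5) is a liver form that also activates bile acids.

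The study asked how long-term phytosterol intake changes lipid metabolism in liver and lung. All animals were male wild-type C57BL/6J mice, labelled with an age of 28 weeks, and no group carried a transgene or a deleted gene. The age at purchase, the adaptation and the feeding period in the methods add up to more than the labelled age, so the age at sacrifice is uncertain. The CS group received the control diet and the PS group the same kind of diet with 2% phytosterols, the plant sterols that compete with cholesterol for uptake in the gut. RNA-seq covered 4 CS livers, 5 PS livers, 3 CS lungs and 3 PS lungs from 9 mice, of which 6 gave both tissues. Each library was whole-tissue RNA of a single mouse, so fewer cells of a type and less RNA per cell cannot be told apart.

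The libraries held between 14410117 and 19396057 counts in genes. Counts of replicates differed beyond sampling noise in every pair, so none was counted as a duplicate. Hepatocyte markers summed to between 82876 and 119679 TPM (a count divided by gene length and scaled to the same total in every library) in the livers, and alveolar type 2 cell markers to between 33181 and 61778 TPM in the lungs, so both tissues carried their labelled markers. Genes of the mitochondrial genome took 3.33 to 14.4% of counts in livers and 2.94 to 7.28% in lungs, with CS liver 2 and PS liver 1 at 14.4 and 13.3%. Fat cell markers were spread widely among the lungs, and those values stand beside the results for Cd36 and Fabp4.

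The promoters of Fabp1, Slc27a2 and Cd36 are shown because these genes had the highest levels among the binding proteins and transporters of liver and among all the members in lung. The RefSeq promoter table of build GRCm38.p6 gave 9 windows of 300 bases, 250 before and 50 after a start site, for 7 of the 10 members. The windows are chr6:71199629-71199928 on the plus strand for Fabp1, chr2:126552774-126553073 on the plus strand for Slc27a2 and chr5:17835847-17836146 on the minus strand for Cd36, and each is written 5′ to 3′ along its gene. The Cd36 window lies inside the gene, whose 5′ end on the minus strand is at 17888801. Which start site was used in lung was not measured. Capitals mark the stretch closest to DR1, in which AGGTCA is followed by any 1 base and by AGGTCA again, searched on both strands. PPAR and RXR receptors, which sense fatty acids and retinoids, can bind such a repeat.
Fabp1: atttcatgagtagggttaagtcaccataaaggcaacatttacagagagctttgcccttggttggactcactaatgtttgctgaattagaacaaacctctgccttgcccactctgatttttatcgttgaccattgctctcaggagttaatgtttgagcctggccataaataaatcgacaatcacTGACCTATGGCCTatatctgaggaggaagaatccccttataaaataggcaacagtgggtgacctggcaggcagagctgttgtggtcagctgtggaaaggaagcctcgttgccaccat
Slc27a2: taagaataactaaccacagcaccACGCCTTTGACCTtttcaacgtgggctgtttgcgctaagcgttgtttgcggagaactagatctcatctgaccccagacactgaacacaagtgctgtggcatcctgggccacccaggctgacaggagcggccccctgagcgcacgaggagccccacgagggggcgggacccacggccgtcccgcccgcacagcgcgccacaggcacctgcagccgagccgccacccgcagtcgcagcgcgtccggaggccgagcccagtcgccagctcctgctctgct
Cd36: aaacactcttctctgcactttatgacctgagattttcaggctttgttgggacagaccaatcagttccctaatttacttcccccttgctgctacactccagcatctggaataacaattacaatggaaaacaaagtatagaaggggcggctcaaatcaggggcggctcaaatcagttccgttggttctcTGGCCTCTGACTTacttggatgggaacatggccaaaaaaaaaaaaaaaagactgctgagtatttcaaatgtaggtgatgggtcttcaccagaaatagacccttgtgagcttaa
The Fabp1 stretch, TGACCTATGGCCT, began 67 bases before the start site in the reverse orientation and had 1 mismatch to the repeat, a closeness that 0.554% of the 32851 promoters in the table reached. A TATAAA word began 30 bases before the Fabp1 start site, and this word lay on either strand in 13.6% of all promoters. The best Cd36 stretch, TGGCCTCTGACTT, had 2 mismatches (3.86% of all promoters at 2 or fewer), and the best stretch of Slc27a2 had 3 (24.6% at 3 or fewer). Slc27a2 held 25 CpG dinucleotides in its window against 3 in each of Fabp1, Cd36 and Fabp2 and a median of 7 over all promoters. A match is a description of letters only, and no binding was measured.

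Each tissue drew on a different set of members. Since TPM takes the length of each gene into account, levels of different genes can be compared on it. In CS livers the order of mean levels was Fabp1, Slc27a2, Slc27a5, Fabp2, Cd36, Slc27a4, Slc27a1, Fabp5, Fabp4 and Slc27a3. The ranges of neighbours in this order overlapped for Slc27a5 with Fabp2 and for each step from Cd36 down to Fabp5, and the other neighbours did not overlap. In CS lungs Cd36 came first by a wide margin, followed by Fabp4, Fabp5, Fabp1, Slc27a4, Slc27a1, Slc27a3, Slc27a2, Fabp2 and Slc27a5. There Cd36 stood apart from its neighbour, each step from Fabp4 down to Slc27a3 overlapped, Slc27a2 stood apart on both sides, and Fabp2 overlapped with Slc27a5. The length in the files is that of all exons together, which is 4489 bases for Fabp4 and 3567 for Fabp5 against 896 and 987 for their main transcripts. On main transcript lengths, Fabp4 was at a mean of 265 TPM and Fabp5 at 161 TPM in CS lungs, and both kept their ranks there, while Slc27a1 came 5th and Slc27a4 6th instead of the reverse. In CS livers the order also changed on those lengths, with Fabp5 6th instead of 8th and Slc27a4 8th instead of 6th.

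**Figure D1:**
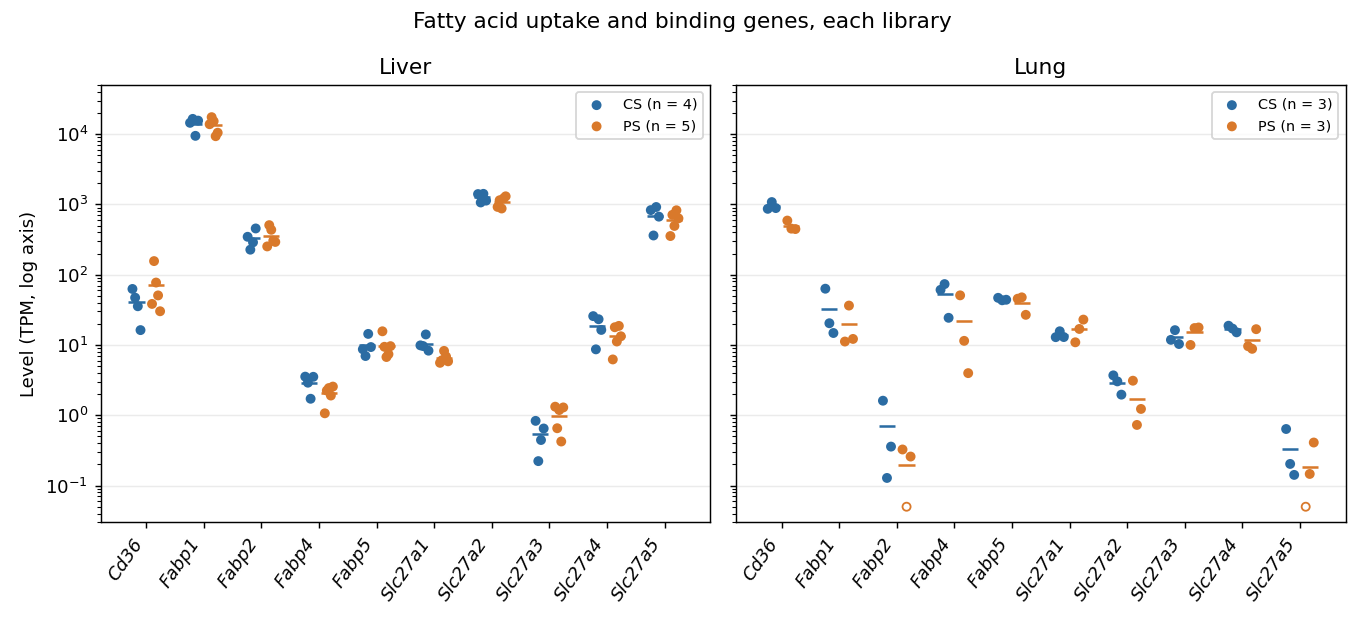
Levels of the 10 members (horizontal axis) in TPM on a log axis, with 1 point per library and a short line at each group mean, for liver (left) and lung (right), CS in blue and PS in orange. Open points are libraries with a count of 0, drawn at 0.05 since a log axis has no 0. Fabp1 sits at 9326 TPM or more in every liver and at 63.1 TPM or less in every lung, and in lung Cd36 is the member whose CS and PS points separate.

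Cd36, the membrane receptor, lies on chromosome 5 (GRCm38, 17781690 to 17888801, minus strand). It was the leading member in lung and ranked 91st of all genes there by mean level in the CS group. CS lungs 1, 2 and 3 held 864, 1079 and 886 TPM, and PS lungs 1, 2 and 3 held 588, 452 and 446 TPM. Every PS lung lay below every CS lung, with means of 943 ± 118 (SD, n = 3) and 495 ± 80.6 (SD, n = 3) TPM. The log2 fold change (PS over CS) was -0.73 (SE 0.23), a 1.66-fold lower level in PS, with an unadjusted p of 0.0119 and an adjusted p of 0.0758 by edgeR's quasi-likelihood test with Benjamini-Hochberg adjustment over all genes tested. Cd36 therefore did not pass the threshold of 0.05 in that fit. DESeq2 gave an adjusted p of 0.0128 with the same fold change, edgeR with no filter on low counts gave 0.0305, and leaving out PS lung 1 gave 0.0128 with a log2 fold change of -1.01. With each lung left out in turn the log2 fold change lay between -1.01 and -0.59, and only the removal of PS lung 1 gave a call. With the summed fat cell markers as a covariate, chosen after the data were seen, the log2 fold change was -0.54 and the adjusted p by edgeR 0.257. PS lungs 2 and 3 were below every CS lung in these markers, so this fit cannot tell diet from fat cell content. Mitochondrial counts also separated the lungs by diet, at 2.94 to 3.51% in CS and 3.69 to 7.28% in PS, as did the summed alveolar type 2 markers, at 33181 to 38058 TPM in CS and 40819 to 61778 TPM in PS, and their part in the Cd36 values was not tested. That sum was mostly the surfactant gene Sftpc (log2 fold change 0.82, edgeR adjusted p = 0.0764), whereas 4 of the 6 type 2 markers were lower in PS, among them the lipid transporter gene Abca3 at -0.9995 without overlap (edgeR adjusted p = 0.0549). Sftpc passed with DESeq2 (adjusted p = 0.00296) and without PS lung 3 (adjusted p = 0.0208 by edgeR), and Abca3 passed with DESeq2 (adjusted p = 0.00472) and in edgeR with no filter (0.0431), the replicate block (0.0319), the GC trend removed (0.0420) or PS lung 3 left out (0.00785).

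The diet difference of Cd36 in liver had the other sign. CS livers 1 to 4 held 62.6, 47.1, 35.6 and 16.3 TPM, and PS livers 1 to 5 held 38.4, 156, 77.3, 50.7 and 30.2 TPM. PS liver 2 was the highest and CS liver 4 the lowest, PS livers 2 and 3 lay above every CS liver, and the groups overlapped between 30.2 and 62.6 TPM. On the log2 scale the fold change was 0.85 (SE 0.48; edgeR adjusted p = 0.741), and without PS liver 2 it was 0.36. The difference between the tissues' diet effects, lung minus liver, was -1.63 on the log2 scale (SE 0.66), with an unadjusted p of 0.0249 and an adjusted p of 0.411 in edgeR's fit over all 15 libraries.

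Fabp4, the FABP of fat cells and macrophages, lies on chromosome 3 (10204088 to 10208576, minus strand). It stood at 60.8, 73.5 and 24.3 TPM in CS lungs 1 to 3 and at 50.8, 11.4 and 3.98 TPM in PS lungs 1 to 3. PS lung 1 was inside the CS range and the other PS lungs were below it. The log2 fold change was -0.92 (SE 1.05; edgeR adjusted p = 0.598), an error larger than the difference. Leaving out PS lung 1 moved it to -2.67, with an adjusted p of 0.0353 by edgeR, so that library decided the call. Over all lungs left out in turn the log2 fold change lay between -2.67 and -0.41.

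The 8 fat cell markers summed to 243, 319 and 44.3 TPM in CS lungs 1 to 3 and to 206, 16.1 and 17.3 TPM in PS lungs 1 to 3. The 4 lungs richest in Fabp4 were also the 4 richest in these markers, in the same order, and all 8 markers were lower in PS with 0 passing the test. Adipoq, Cfd and Lep were at 0 in PS lungs 2 and 3, and Lep was at 0 in CS lung 3. Cd36 followed the markers less closely: CS lung 3 held 886 TPM of Cd36 beside 44.3 TPM of fat cell markers. Endothelial markers, which mark another cell type known for CD36, summed to between 2199 and 3251 TPM in CS lungs and between 2222 and 2990 TPM in PS lungs, ranges that overlapped. Of the 8 endothelial markers 5 were higher and 3 lower in PS. Kdr, the VEGF receptor gene, separated like Cd36, at 288 to 403 CPM (counts per library total after TMM scaling) in CS and 120 to 203 CPM in PS (log2 fold change -0.95, SE 0.23; edgeR adjusted p = 0.0412), a call lost without CS lung 1, 2 or 3 or PS lung 2 (adjusted p-values of 0.0990 to 0.128), with the fat cell covariate (log2 fold change -0.76, adjusted p = 0.1825) and with limma on FPKM plus 1 or plus 0.1 (adjusted p-values of 0.0521 and 0.0525). Tie1 and Egfl7 went the other way without overlap, with log2 fold changes of 0.47 (edgeR adjusted p = 0.116) and 0.49 (edgeR adjusted p = 0.158). These were 0.30 and 0.26 without PS lung 3, and 0.27 and 0.31 with a trend with GC content removed. Heart muscle markers also differed among lungs, at 226, 366 and 215 TPM in CS and 517, 52.0 and 94.4 TPM in PS. With the fat cell covariate the log2 fold change of Fabp4 was -0.16, with an adjusted p of 0.881 by edgeR. PS lungs 2 and 3 lay below every CS lung in the fat cell markers, and Fabp4 is itself a gene of fat cells. This fit therefore cannot tell diet from fat cell content. The part of fat cell, heart muscle or macrophage RNA in these values was not tested. Lung macrophage markers ranged from 593 to 737 TPM in CS and from 557 to 1036 TPM in PS lungs, and 7 of the 8 were higher in PS, at a median of 0.55 on the log2 scale, 4 of them at an unadjusted p of at most 0.05, which 15.6% of all genes reached in that direction, and 0 passing the adjusted test by edgeR.

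**Figure D2:**
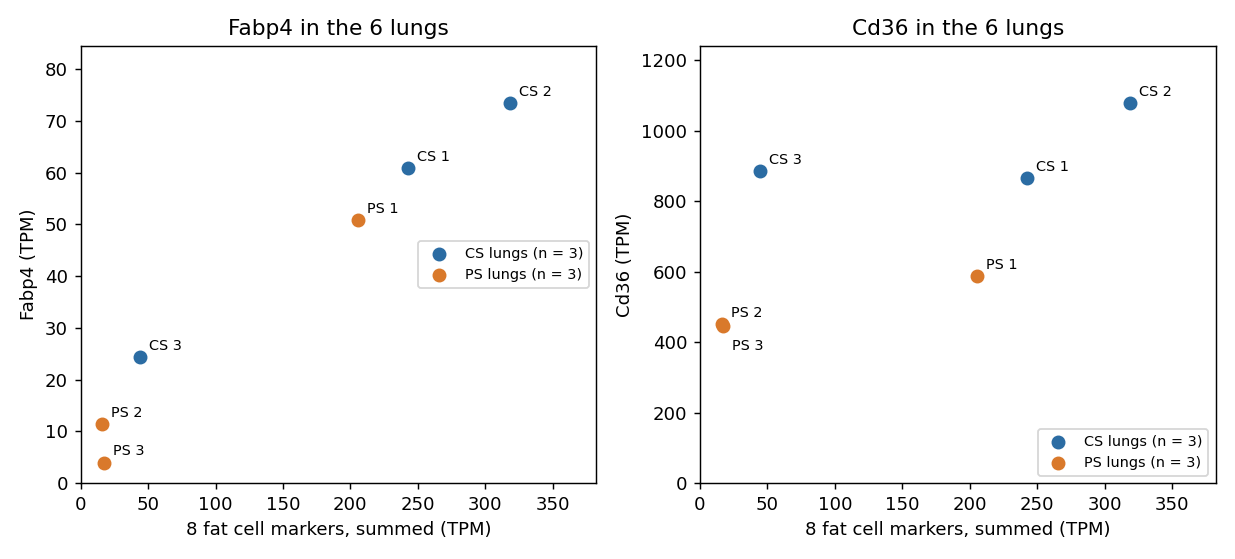
Fabp4 (left) and Cd36 (right) in TPM against the summed TPM of 8 fat cell markers in the 6 lungs, 1 labelled point per library, CS in blue and PS in orange. Fabp4 is highest in the 3 lungs with over 200 TPM of fat cell markers, while CS lung 3 keeps 886 TPM of Cd36 at 44.3 TPM of markers.

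In liver Fabp4 was low. CS livers 1 to 4 held 3.54, 2.91, 1.72 and 3.52 TPM and PS livers 1 to 5 held 1.07, 2.25, 2.44, 1.91 and 2.56 TPM. The ranges overlapped, with 3 of 4 CS livers above every PS liver, and the log2 fold change was -0.53 (SE 0.32; edgeR adjusted p = 0.763). Kupffer cell markers summed to between 152 and 226 TPM in CS livers and between 48.2 and 179 TPM in PS livers, with 6 of 6 markers lower in PS. Fat cell markers summed to between 26.8 and 104 TPM in CS livers and between 15.7 and 40.5 TPM in PS livers, with overlap. Of the 3 fat cell markers tested in liver, 2 were lower and 1 higher in PS. The part of both cell types in the Fabp4 values was not tested.

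Fabp1, the liver FABP on chromosome 6 (71199827 to 71205023, plus strand), was the 13th most abundant of all genes in liver by mean TPM in both diet groups. CS livers 1 to 4 held 14453, 16445, 9437 and 15530 TPM, and PS livers 1 to 5 held 13807, 17399, 15243, 9326 and 10460 TPM. The means of 13966 ± 3127 (SD, n = 4) and 13247 ± 3342 (SD, n = 5) TPM differed by less than the spread within either group, with a log2 fold change of -0.06 (SE 0.32; edgeR adjusted p = 0.993). Fabp1 made up 96.7 to 98.6% of the summed TPM of the 4 FABP members in every liver.

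A trace of Fabp1 was counted in every lung. CS lungs 1 to 3 held 63.1, 20.4 and 14.8 TPM and PS lungs 1 to 3 held 11.2, 36.3 and 12.2 TPM, from 54 to 292 counts. CS lung 1 was the highest of the 6, and the diet groups overlapped. The log2 fold change was -0.55 (SE 0.60; edgeR adjusted p = 0.569), and without CS lung 1 it was 0.30. Relative to the mean of the livers, Fabp1 in the lungs was 0.465, 0.150 and 0.109% in CS and 0.0825, 0.268 and 0.0898% in PS. Hepatocyte markers were at lower percentages in the same lungs, 0.119, 0.00428 and 0.00273% in CS and 0.00367, 0.0194 and 0.00958% in PS. Both measures were highest in CS lung 1, and the source of the lung Fabp1 reads was not tested.

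Fabp2, the intestinal FABP on chromosome 3 (122895072 to 122899506, plus strand), was counted at a substantial level in liver. CS livers 1 to 4 held 346, 227, 288 and 454 TPM and PS livers 1 to 5 held 252, 506, 435, 304 and 292 TPM. The groups overlapped, and the log2 fold change was 0.15 (SE 0.27; edgeR adjusted p = 0.963). Markers of enterocytes, the gut cells FABP2 is named for, summed to at most 0.301 TPM in any liver. The lungs had 13, 1 and 3 counts of Fabp2 in CS and 3, 0 and 2 counts in PS, too few for the diet test. A count of 0 allows up to 3 counts at this depth.

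Fabp5, the epidermal FABP, lies on chromosome 3 (10012548 to 10016607, plus strand). Lungs held 46.8, 43.2 and 44.0 TPM in CS and 45.5, 47.6 and 26.8 TPM in PS. PS lung 3 was below the rest, and the log2 fold change was 0.03 (SE 0.25; edgeR adjusted p = 0.944). Livers held 8.69, 6.96, 14.4 and 9.34 TPM in CS and 15.6, 9.42, 6.74, 7.40 and 9.62 TPM in PS. The liver groups overlapped, with a log2 fold change of 0.12 (SE 0.32; edgeR adjusted p = 0.980) that became -0.25 without PS liver 1. The near copies Gm14328 and Gm6166 match Fabp5 transcripts over 408 and 409 bases at 97.3 and 98.3% identity, and they had at most 14 counts in any library, so the split of reads between them and Fabp5 is uncertain.

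Among the transporters, Slc27a2 and Slc27a5 supplied nearly all of the FATP mRNA in liver, at up to 73.7% and 39.8% of the summed TPM of the 5 genes. Slc27a2, a very long-chain acyl-CoA synthetase and transporter on chromosome 2 (126552407 to 126588243, plus strand), stood at 1402, 1064, 1412 and 1132 TPM in CS livers and at 920, 1145, 874, 1221 and 1302 TPM in PS livers. Slc27a5, on chromosome 7 (12988346 to 12998192, minus strand), stood at 829.2, 361, 917 and 669 TPM in CS livers and at 354, 710, 494, 824 and 633 TPM in PS livers. Neither separated by diet. The log2 fold changes were -0.15 (SE 0.17; edgeR adjusted p = 0.918) for Slc27a2 and -0.15 (SE 0.22; edgeR adjusted p = 0.950) for Slc27a5. The lowest Slc27a5 levels were in CS liver 2 and PS liver 1, the livers with the highest mitochondrial shares, and without both the log2 fold change of Slc27a5 was -0.22. Slc27a2 overlaps the long noncoding RNA gene Gm26697 on the other strand by 419 bases, but Gm26697 had 1 to 15 counts in livers and 0 in lungs.

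In lung the same pair of genes was low. Slc27a2 held 3.70, 3.03 and 1.96 TPM in CS lungs and 3.10, 0.728 and 1.23 TPM in PS lungs, with overlap between the diets. Its log2 fold change was -0.51 (SE 0.55; edgeR adjusted p = 0.561), and without PS lung 1 it was -1.499 with an adjusted p of 0.0336 by edgeR. Leaving out each lung in turn gave values from -1.499 to -0.13. Slc27a5 had 13, 4 and 3 counts in CS lungs and 0, 3 and 8 counts in PS lungs, too few for the diet test.

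Slc27a1, the insulin-responsive FATP1 of muscle and fat, on chromosome 8 (71568882 to 71587302, plus strand), gave the lowest unadjusted p of the members in liver. CS livers 1 to 4 held 9.87, 9.65, 14.1 and 8.30 TPM and PS livers 1 to 5 held 5.57, 6.07, 8.24, 6.85 and 5.86 TPM. On TPM the groups were just separated, and on CPM, whose scaling the test uses, CS liver 1 at 23.8 lay below PS liver 3 at 24.8. The log2 fold change was -0.62 (SE 0.19), 1.54-fold lower in PS, with an unadjusted p of 0.0066 and an adjusted p of 0.391 by edgeR, so it did not pass the test. In lung the values were 12.9, 15.7 and 12.96 TPM in CS and 10.9, 16.9 and 22.9 TPM in PS, with PS lung 1 the lowest and PS lung 3 the highest of the 6. The lung log2 fold change was 0.42 (SE 0.19; edgeR adjusted p = 0.180), and without PS lung 1 it was 0.58 with an adjusted p of 0.0455. Over all lungs left out in turn it lay between 0.23 and 0.58. The difference between the diet effects, lung minus liver, was 1.00 on the log2 scale (SE 0.28), with an unadjusted p of 0.00237 and an adjusted p of 0.264 by edgeR. DESeq2 gave an adjusted p of 0.0307 for that difference. In simulated counts its calls in that comparison were 63 changed and 33 unchanged genes. Endothelial markers of liver summed to between 40.5 and 54.97 TPM in CS and between 15.6 and 38.9 TPM in PS without overlap, with 8 of 8 markers lower in PS, and their part in the liver Slc27a1 values was not tested.

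Slc27a3, an acyl-CoA synthetase of the FATP family on chromosome 3 (90385239 to 90389938, minus strand), was a lung member. It stood at 11.8, 16.2 and 10.3 TPM in CS lungs and at 10.003, 17.4 and 17.7 TPM in PS lungs, so the groups overlapped (log2 fold change 0.38, SE 0.21; edgeR adjusted p = 0.261). Livers held only 0.832, 0.223, 0.445 and 0.648 TPM in CS and 1.32, 0.654, 1.19, 0.423 and 1.29 TPM in PS. The PS mean was the higher, with overlap, and the log2 fold change was 0.99 (SE 0.53; edgeR adjusted p = 0.719). Slc27a4, FATP4, on chromosome 2 (29802634 to 29817522, plus strand), was expressed in both tissues. CS livers held 25.7, 8.66, 23.2 and 16.4 TPM and PS livers 6.23, 17.9, 11.2, 18.7 and 13.3 TPM, with CS liver 2 and PS liver 1 again the lowest of their groups. CS lungs held 18.8, 17.1 and 15.1 TPM and PS lungs 9.60, 8.81 and 16.8 TPM, where PS lung 3 alone lay inside the CS range. The log2 fold changes were -0.40 (SE 0.26; edgeR adjusted p = 0.784) in liver and -0.38 (SE 0.21; edgeR adjusted p = 0.254) in lung, and without PS lung 3 the lung value was -0.63 with an adjusted p of 0.0492. With each lung left out in turn the lung value lay between -0.63 and -0.20.

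Counted together, no member passed the diet test by edgeR in either tissue. In liver 10 of 10 members entered the test and 0 passed at an adjusted p under 0.05 by edgeR, where 0.00758% of the 13195 genes tested passed. At an unadjusted p of at most 0.05 there was 1 member, Slc27a1, against 7.55% of all genes, and DESeq2 called 0 members against 1.24% of genes. The liver groups did not overlap on CPM for 0 members, against 3.63% of all genes. The median log2 fold change was -0.10 over the members and -0.03 over all genes. In lung 8 of 10 members entered the test and 0 passed by edgeR, where 9.22% of the 16717 genes tested passed, and DESeq2 called 1 member, Cd36, against 18.5% of genes. At an unadjusted p of at most 0.05 there was again 1 member, Cd36, against 30.1% of all genes. Cd36 was also the 1 member whose lung groups did not overlap, which 36% of all genes did. The median over the 8 lung members was -0.45 against 0.01 over all genes, with 5 of 8 lower in PS. The test of the difference between tissues passed 0 of 10 members by edgeR, against 0.0226% of 17696 genes, and DESeq2 passed 1, Slc27a1, against 1.46% of genes. Fabp2 and Slc27a5 had too few lung counts for the diet test and entered here through their liver counts, so their results say little. At an unadjusted p of at most 0.05, Cd36 and Slc27a1 were the 2 members, against 10.9% of all genes. The test across tissues uses the same libraries as the tests within them.

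**Figure D3:**
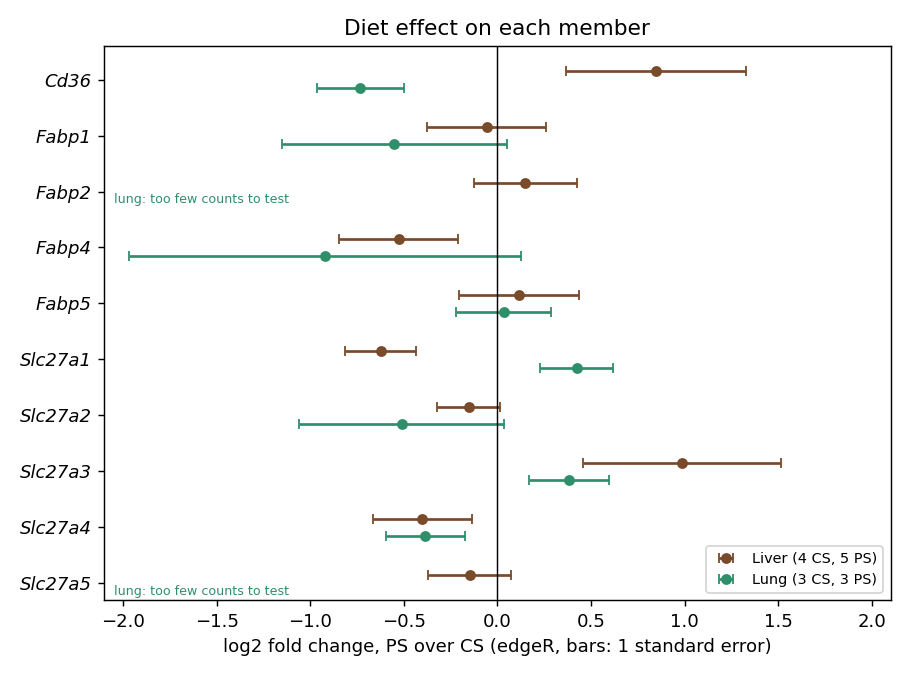
Diet effect on each member (vertical axis) as the log2 fold change of PS over CS (horizontal axis), with bars of 1 standard error from edgeR, for liver in brown and lung in green. Cd36 lies at 0.85 in liver and -0.73 in lung and Slc27a1 at -0.62 and 0.42, the members whose estimates fall on opposite sides of 0 with bars that do not meet.

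Between tissues some members were liver genes and some lung genes, while Fabp5, Slc27a1 and Slc27a4 had smaller differences that depended on the diet or the scaling. On CS, 9 of 10 members passed the lung against liver test by edgeR (67.1% of the 17696 genes tested passed), 3 higher in lung (37% of all genes) and 6 lower (30%). On PS, 8 members passed (68.7% of all genes), 3 higher (38%) and 5 lower (30.7%). With a background this high the counts say little about the members, and the sizes are described instead. Fabp2 and Slc27a5 entered this test through their liver counts alone and had to differ, so they are given by counts and not as support.

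The genes higher in lung were Cd36, Fabp4 and Slc27a3, with sizes given on TMM scaling. Cd36 was 8.36-fold higher in lung on CS (log2 3.06, SE 0.49; edgeR adjusted p = 3.74e-05) and 2.70-fold higher on PS (log2 1.43, SE 0.44; edgeR adjusted p = 0.00854). Fabp4 was 6.09-fold higher on CS (edgeR adjusted p = 0.00196) and 4.57-fold higher on PS (edgeR adjusted p = 0.00401). The PS values of these genes leaned on PS lung 1: without it the log2 difference of Fabp4 was 0.42 (adjusted p = 0.431 by edgeR) and that of Cd36 was 1.14 (adjusted p = 0.0533). With the mouse as a block over the 12 libraries of mice that gave both tissues, Fabp4 on PS had a log2 difference of 1.29 and an adjusted p of 0.177, which ended the call. Slc27a3 was 8.44-fold higher on CS (edgeR adjusted p = 1.33e-05) and 5.43-fold higher on PS (edgeR adjusted p = 3.72e-05), and every lung lay above every liver.

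The genes lower in lung, again on TMM scaling, were led by Fabp1 and Slc27a2. Fabp1 differed by -10.31 on the log2 scale on CS (SE 0.80), 1269-fold, and by -10.84 on PS (SE 0.81), with edgeR adjusted p-values of 9.54e-09 and 5.14e-09. Slc27a2 differed by -10.26 on CS (SE 0.62) and -10.65 on PS (SE 0.63), with edgeR adjusted p-values of 5.23e-10 and 3.04e-10. Slc27a4 was 2.97-fold lower on CS (edgeR adjusted p = 0.000189) and 3.04-fold lower on PS (edgeR adjusted p = 0.000117). Slc27a1 was 2.13-fold lower on CS (edgeR adjusted p = 0.000195) with a log2 difference of -0.09 on PS (adjusted p = 0.681).

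The sizes of the differences between tissues depended on how the libraries were scaled, and for the smaller ones the sign or the call did too. The TMM factors were 0.62 to 0.74 in livers and 1.63 to 1.86 in lungs, and the median log2 difference of all genes was 0.18 with TMM and 1.55 on CS with library totals alone. With library totals Slc27a1 changed sign, to 0.29 on CS and 1.31 on PS (adjusted p = 1.91e-05 by edgeR), and Slc27a4 was at -0.20 and -0.22 and lost its call. Fabp5 had log2 differences of 0.70 on CS (edgeR adjusted p = 0.0763) and 0.60 on PS (edgeR adjusted p = 0.110) with TMM and passed in both diets with DESeq2 size factors and with library totals. It also passed in both diets with the DESeq2 test (adjusted p-values of 0.0378 and 0.0493) and with at least 10 counts in every library. In a fit of the CS libraries alone it passed too (adjusted p = 0.0199 by edgeR). Leaving out PS liver 1 gave Fabp5 0.70 on CS (adjusted p = 0.0245 by edgeR) and 0.94 on PS (adjusted p = 0.00415), and leaving out PS lung 3 gave it 0.88 on PS (adjusted p = 0.0279). With the mouse as a block Fabp5 on CS had a log2 difference of 0.82 and passed, with an adjusted p of 0.0348 by edgeR. Cd36, Fabp4, Slc27a3, Fabp1 and Slc27a2 kept their direction and their call under all 3 scalings. Of all calls on CS, 55.2% were higher in lung with TMM and 83.8% with library totals.

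**Figure D4:**
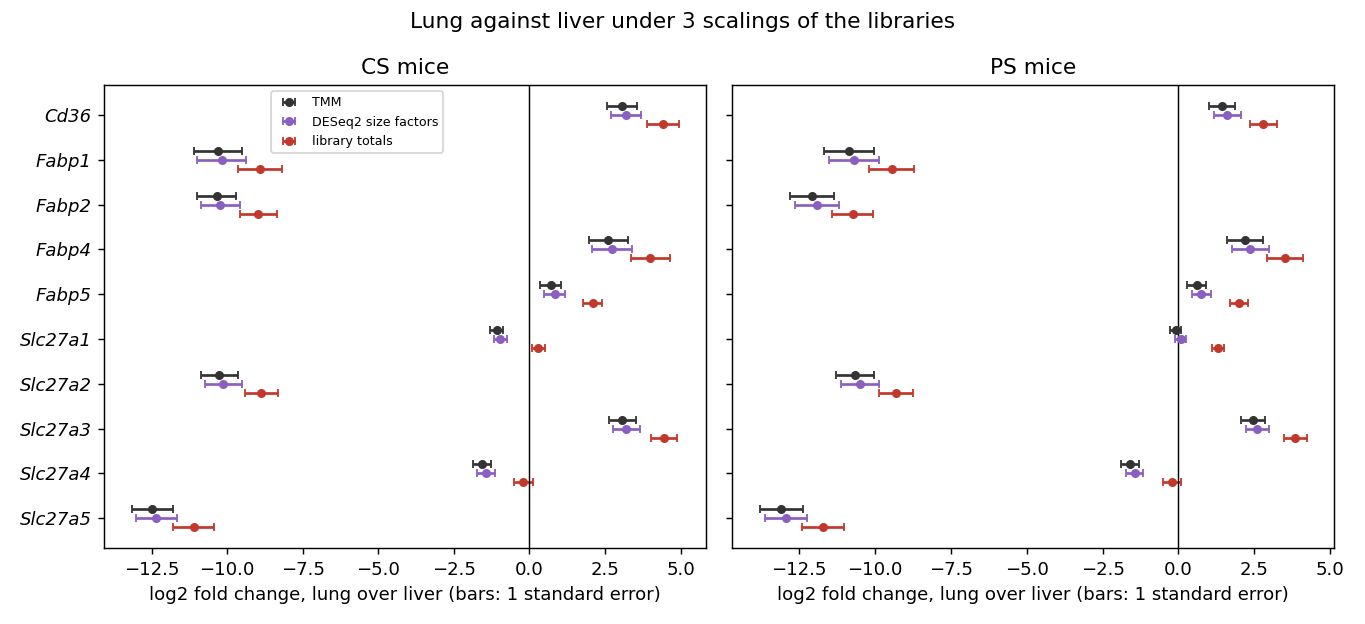
Lung over liver difference of each member (vertical axis) on the log2 scale (horizontal axis), with bars of 1 standard error, on CS (left) and PS (right), under TMM in black, DESeq2 size factors in purple and library totals in red. Slc27a1 moves from -1.09 to 0.29 on CS, while Fabp1 and Slc27a2 stay below -8 throughout. Fabp2 and Slc27a5 are drawn too, but had 0 to 13 counts in any lung, so their fitted positions support nothing.

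The neighbouring steps of the pathway were read from 4 further lists. Of the 7 other genes of these families, 1 was tested in liver and 3 in lung and 0 passed by edgeR. Slc27a6, the FATP gene of heart, came closest in lung (log2 fold change -1.24, SE 0.33; edgeR adjusted p = 0.0504), at 2.88 to 4.37 CPM in CS and 1.36 to 2.07 in PS, and it passed with DESeq2 (adjusted p = 0.01615), with DESeq2 size factors in edgeR (0.04999), with no filter (0.0416), with at least 10 counts in every library (0.0432) and with limma on FPKM plus 1 (0.04835). Among 8 genes of lipolysis and entry, 0 of 8 tested passed in liver and 1 of 7 in lung (9.22% of all genes passed there), where Got2, a mitochondrial aminotransferase also described as a plasma membrane fatty acid binding protein, fell by 0.75 on the log2 scale (SE 0.20; edgeR adjusted p = 0.0498). That call of Got2 was lost without any library other than PS lung 1, with adjusted p-values of 0.0784 to 0.158 by edgeR, and also with DESeq2 size factors (adjusted p = 0.05019) and with limma on FPKM plus 1 or plus 0.1 (adjusted p-values of 0.0610 and 0.0614). In liver Lpl, the lipoprotein lipase gene, and Gpihbp1, its anchor on endothelium, had log2 fold changes of -0.73 (adjusted p = 0.652 by edgeR) and -0.56 (adjusted p = 0.583 by edgeR), beside the lower endothelial markers given above. Without CS liver 4 the log2 fold change of Lpl was -0.36.

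Of 9 genes of fatty acid activation and acyl-CoA binding, 8 were tested in each tissue. In lung 1 of the 8 passed, again beside 9.22% of all genes, and it was Acsl1, a long-chain acyl-CoA synthetase, which fell by 0.98 on the log2 scale (SE 0.22; edgeR adjusted p = 0.0364), and 7 of the 8 were lower in PS, with a median of -0.34 against 0.01 over all genes. Acsl1 CPM were 73.9 to 92.8 in CS lungs and 28.1 to 49.8 in PS lungs, without overlap. The call of Acsl1 was lost without CS lung 1, 2 or 3 or PS lung 2, with adjusted p-values of 0.0856 to 0.118 by edgeR, and with the GC trend removed (adjusted p = 0.0519). In liver 0 passed, and Acsl1 had a log2 fold change of -0.56 (adjusted p = 0.658 by edgeR). All 5 regulators were tested in both tissues, and 1 passed in lung beside the same 9.22%. This was Ppara, the fatty acid sensing receptor, which fell by 2.00 on the log2 scale in lung (SE 0.41; edgeR adjusted p = 0.0312), from 2.26 to 2.82 CPM in CS to 0.414 to 0.938 in PS. The call of Ppara was lost without the same libraries, with adjusted p-values of 0.106 to 0.108 by edgeR. With limma its log2 fold change was -0.51 on FPKM plus 1 and -1.56 on FPKM plus 0.1 (adjusted p-values of 0.0247 and 0.0287). This low gene left the test when at least 10 counts were asked of every library. With the fat cell covariate none of these 3 genes passed by edgeR, with log2 fold changes of -0.51 for Got2 (adjusted p = 0.1775), -0.81 for Acsl1 (adjusted p = 0.159) and -2.35 for Ppara (adjusted p = 0.0892), the last larger than without it. No regulator passed in liver, where the coactivator gene Ppargc1a had a log2 fold change of 0.79 (adjusted p = 0.463 by edgeR), and every PS liver lay above every CS liver.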

How the data were processed

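Poly(A) RNA of 9 livers and 6 lungs was sequenced. According to the submitters' processing notes, the authors worked on mm10 with HISAT2 2.0.5, featureCounts 1.5.0-p3 and DESeq2 1.20.0, and they deposited raw counts per gene and FPKM values with gene lengths and coordinates. The strand setting of the counting was not given in the sources used here. Members and gene lists were chosen with earlier results of these data known, so no count over them is independent support. The deposited counts were tested in R 4.3.3 with edgeR 4.0.16 (quasi-likelihood test, TMM scaling, filterByExpr) and no covariate. Each tissue was fitted on its own for diet, and all 15 libraries together for tissue and for the difference between diet effects. Benjamini-Hochberg adjustment ran over all genes tested, with a threshold of 0.05. P-values of the diet tests within a tissue measure the spread between mice. In the main fits over all 15 libraries, the liver and lung of the same mouse entered as independent libraries.

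TPM was computed from the counts and the lengths in the files, which equal the union of exons in GENCODE M21 for 53411 of 54532 genes. Named genes were all 10 members, genes of the 4 further pathway lists that passed the diet test or, in liver, had an unadjusted p of at most 0.05 (4 at most a list), and for 4 members the 3 genes most like them. Marker genes were given as counts and sums, by name only where at 0 or where a result turned on one. Slc27a6, Kdr, Tie1, Egfl7, Sftpc and Abca3 were named after their values were seen. Alternatives were DESeq2 1.42.0, its size factors, other filters, limma 3.58.1 on log2(FPKM + 1) and log2(FPKM + 0.1) from the deposited FPKM, replicate blocks and leaving out each library. A trend with GC content, fat cell markers as a covariate, library totals and dropping the 2 livers with over 13% mitochondrial counts were added after seeing the data. In simulated counts with 200 genes changed by 1.5 on the log2 scale, edgeR recovered 115 of them in the liver diet comparison, 146 in the lung diet comparison and 18 in the test of the difference. It also called 5, 9 and 0 unchanged genes there. DESeq2 recovered 153, 160 and 63 and called 35, 38 and 33 unchanged genes, so more of its calls were false. The label on each library names its mouse, which pairs liver and lung. Residuals of the same mouse correlated between -0.03 and 0.09. Sequences came from RefSeq.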

Additional observations from a re-analysis of the deposited data

Results flagged for a closer look

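In the PS livers, Fabp5 stood at 34.2 CPM (counts per library total after TMM scaling) in PS liver 1 against 16.4 in the next highest, a gap of 0.762 of the range of the 5 livers. Dixon's test set this library apart. Chance does so in about 1 in 20 groups, and here it happened in 1 of the 20 liver groups tested. PS liver 1 also had 13.3% of its counts in genes of the mitochondrial genome, and the part of that share was not tested.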

How the results depend on the processing

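Liver members passing the test stayed at 0 under every setting run. Liver members at an unadjusted p of at most 0.05 went from 1 to 2 with the replicate block and to 2 without the 2 livers of high mitochondrial share, and lay between 1 and 2 with each library left out. All liver genes called, 1 at first, were 163 with DESeq2, 26 with no filter, 2 with at least 10 counts in every library, 6 and 4 with limma on FPKM plus 1 and plus 0.1, 0 with the replicate block, 2 with the GC trend removed, 48 without the 2 livers, and 0 to 65 with a library left out. Lung members called, 0 at first, were 1 with DESeq2, 1 with no filter and 0 to 4 with a library left out. The 4 came without PS lung 1, in the fit that called 2949 of all genes. Lung members at an unadjusted p of at most 0.05, 1 at first, were 2 with no filter, 2 with the GC trend removed, 0 with the fat cell covariate and 1 to 5 with a library left out. The share of all genes at that unadjusted p was counted only in the main fit, at 7.55% in liver and 30.1% in lung. All lung genes called went from 1542 to 3090 with DESeq2, to 2306 with no filter, to 38 with the covariate and to between 0 and 2949 with a library left out. For the difference between diet effects, members called went from 0 to 1 with DESeq2 and stayed at 0 with each library left out. All genes called there, 4 at first, were 228 with DESeq2, 10 with no filter, 0 with the mouse block and 0 to 12 with a library left out. Between tissues, members called were 9 to 10 on CS and 6 to 9 on PS with a library left out. All genes called were 11873 on CS and 12154 on PS, 6715 and 6820 with at least 10 counts in every library, and 10941 to 12176 and 11265 to 12836 with a library left out. The cause of these changes was not tested.

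Signs changed for several members. In liver Fabp1 was 0.053 with the replicate block, 0.045 without the 2 livers and -0.26 to 0.14 with a library left out, and Fabp5 was -0.30 without the 2 livers and -0.25 to 0.25 with a library left out. In lung Fabp5 was -0.027 and -0.032 with limma, -0.031 with the replicate block, and -0.19 to 0.30 with a library left out, Slc27a2 was 0.045 with the covariate, and Fabp1 was -1.26 to 0.30 with a library left out. In the difference between diet effects Slc27a4 was 0.0009 with DESeq2 size factors, the DESeq2 test and the count minimum, 0.25 with the mouse block and -0.25 to 0.16 with a library left out. There, leaving out a library gave -1.25 to 0.32 for Fabp1, -2.19 to 0.10 for Fabp4, -0.35 to 0.25 for Fabp5 and -1.74 to 0.25 for Slc27a5, whose lung counts were too few for the diet test. Between tissues Slc27a1, a called difference of -1.09 on CS, was 0.29 with library totals, and on PS 0.069 with DESeq2 size factors and with DESeq2, 0.20 with the count minimum, 1.31 with library totals and -0.26 to 0.058 with a library left out. Within a tissue the titles share only replicate numbers: same-numbered libraries correlated between -0.36 and -0.03 in liver and between -0.01 and 0.10 in lung, and this block changed no member's call. The mouse block changed the calls of Fabp4 on PS and Fabp5 on CS between tissues and no other. Arms of 3 lungs leave 2 when a library is dropped, which limits what those fits show.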

Other observations

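The genes whose levels moved most like a member's were listed as a description, with no test, by Pearson's r of log2 CPM across libraries that share a tissue and, in part, a diet. Over 9 livers and 7406 genes, Cd36 was most like H2-D1 (r = 0.918), H2-K1 (r = 0.852) and Acnat2 (r = 0.850), and H2-D1 and H2-K1 encode MHC class I proteins. Fabp1 was most like Commd9 (r = 0.983), Arpp19 (r = 0.968) and S100a10 (r = 0.965), and Fabp5 most like Nabp2 (r = 0.852), Pim1 (r = 0.810) and Cbx7 (r = 0.806). Over 6 lungs and 10704 genes, Cd36 was most like Gpalpp1 (r = 0.999), Prkar2b (r = 0.995) and Fyco1 (r = 0.993). Fabp4 was most like Tmem5 (r = 0.990), Ids (r = 0.985) and Ndnf (r = 0.982), and Fabp5 most like Tceanc (r = 0.991), Manea (r = 0.980) and Inpp4b (r = 0.977). With so few libraries and so many genes, high values of r arise readily.

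The balance within the families also differed between the tissues. On the lengths in the files, Fabp5 made up 27.2 to 62.0% of the summed TPM of the 4 FABP members, Fabp4 9.19 to 53.5% and Fabp1 10.4 to 38.1% in the 6 lungs. On main transcript lengths, chosen after the data were seen, these shares were 28.7 to 75.0% for Fabp5, 15.4 to 67.6% for Fabp4 and 2.60 to 13.7% for Fabp1. Among the 5 FATP genes, on the lengths in the files, Slc27a1 made up 27.0 to 38.8%, Slc27a3 24.7 to 39.6% and Slc27a4 from 20.04 to 39.3% in lung. Slc27a4 held 32.7 to 39.3% in CS lungs and 28.6% or less in PS lungs, while Slc27a1 held 27.0 to 32.0% in CS lungs and 32.5 to 38.8% in PS lungs. Shares of a family sum to the same total, so a lower share of one gene comes with a higher share of others. On main transcript lengths Slc27a1 held 40.7 to 54.2%, Slc27a3 20.3 to 30.1% and Slc27a4 14.6 to 30.8% in lung. These shares were not tested.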
